A study of Mus musculus with 12 samples.

Results

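The TNF ligand and receptor superfamilies were followed in gonadal white adipose tissue (GWAT) of mice with and without HOIP in their adipocytes. Genes were taken by symbol from the table of protein-coding genes: every Tnfsf and Tnfrsf gene with a number in its name, and Tnf, Lta, Ltb, Ltbr, Fas, Fasl, Cd27, Cd40, Cd40lg, Cd70, Ngfr, Eda and Edar, whatever their level. This gave 44 of the 21646 genes in that table, 18 ligands and 26 receptors. Of these, 15 ligands and all 26 receptors were above a mean of 0.2 CPM (counts scaled to a common library total) over the 12 libraries. The other 3 were the ligands Tnfsf4 (OX40 ligand) at 0.13, Cd40lg at 0.13 and Cd70 at 0.0063 CPM. The members just above the 0.2 line were Lta at 0.202 and Tnfsf18 at 0.217 CPM.

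The libraries were polyA RNA-seq of whole GWAT from male mice aged 22 to 24 weeks. The animals had 4 combinations of genotype and diet with 3 libraries each, and every library was made from the pooled fat of 3 mice. All mice carried floxed alleles of Hoip (Rnf31), Hoip fl/fl. HoipA-KO mice also carried AdipoQ.Cre, in which the Adiponectin promoter drives Cre in mature adipocytes, and WT mice were Hoip fl/fl without the Cre. From 6 weeks of age they ate a control diet (CD, 14% fat) or a high-fat diet (HFD, 60% fat) for 16 weeks. The libraries held between 30513500 and 60540260 estimated counts. The labels do not say that the pools of a group came from different animals, so the p-values measure the spread between these pools.

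TNF superfamily ligands are made as trimers on the cell surface, and several are cut free by the protease ADAM17. Their receptors carry the signal through TRAF adaptors or, in receptors such as TNFR1 and FAS, through a death domain that can start apoptosis. HOIP is the catalytic subunit of the linear ubiquitin assembly complex, which attaches linear ubiquitin chains in the TNFR1 complex, promotes NF-kB signalling and restrains cell death. In fat, TNF comes largely from macrophages, is raised in obesity and opposes insulin action in adipocytes. The question behind the design was how loss of HOIP in adipocytes, and a fatty diet, change this tissue.

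There were 3 libraries that stood apart from the rest. Replicate 2 of WT on CD held 444 genes more than 8-fold above every other library, 6.46% of its counts, and the summed CPM of 8 epididymal epithelium genes was 15660 in it against 0.877 in replicate 1. Replicate 3 of WT on CD held 5182 such genes, 20.1% of its counts, with 7731 CPM of 6 testis germ cell genes against 16.9 in replicate 1 and 327 in replicate 2. Replicate 1 of HoipA-KO on HFD held 74 such genes, 1.13% of its counts, and 1310 CPM of the epididymal list, almost all of it Crisp1 at 1307 CPM; its 7 smooth muscle genes summed to 2678 CPM against 472 or less in the other HoipA-KO libraries. Across genes, the 3 WT CD libraries correlated with each other at r = 0.785 to 0.907 and replicates of the other groups at 0.971 to 0.993. The comparisons below used 11 libraries, without replicate 3 of WT on CD, as the study's own comparisons did. Counts and calls with all 12 libraries are given beside the results they change. Leaving out replicate 1 or 2 of WT on CD as well leaves 1 library in that group, and the spread then comes from the other groups.

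The tissue label was checked against cell type markers. All 10 adipocyte genes were above the floor of 3 counts in all 12 libraries, and Adiponectin (Adipoq), a defining adipocyte hormone, ran from 203 to 3541 CPM. Rnf31, the deleted gene, was at 20.8, 20.9 and 12.01 CPM in WT on CD and at 18.1, 17.7 and 21.8 CPM in HoipA-KO on CD. It was at 18.5, 18.2 and 20.0 CPM in WT on HFD and at 20.0, 18.8 and 22.5 CPM in HoipA-KO on HFD. Counts over the whole gene in whole tissue do not separate the genotypes, and they include cells in which the Cre is not active.

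Levels of different genes were compared as CPM per kb of exon, since a longer transcript gives more reads. Tnfrsf1a encodes TNFR1, a receptor for TNF. It had the highest mean of the family in all 4 groups, from 66.2 per kb in WT on CD to 97.6 per kb in HoipA-KO on CD. In WT on CD it was followed by Ltbr, the lymphotoxin beta receptor, at 34.1, Fas at 14.9 and Tnfsf12, the ligand TWEAK, at 13.4 per kb. In HoipA-KO on CD the next genes were Tnfsf12 at 81.1, Tnfrsf1b (TNFR2, which also binds TNF) at 63.6 and Ltbr at 44.1 per kb. In that group the libraries of Tnfrsf1a (93.1 to 104.0) lay above those of Tnfsf12 (74.6 to 92.1), those of Tnfsf12 and Tnfrsf1b (52.9 to 74.8) overlapped, and Ltbr (40.9 to 50.0) lay below both. Tnf itself was far down this order, at 0.17 per kb in WT on CD and 2.27 per kb in HoipA-KO on CD.

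**Figure D1:**
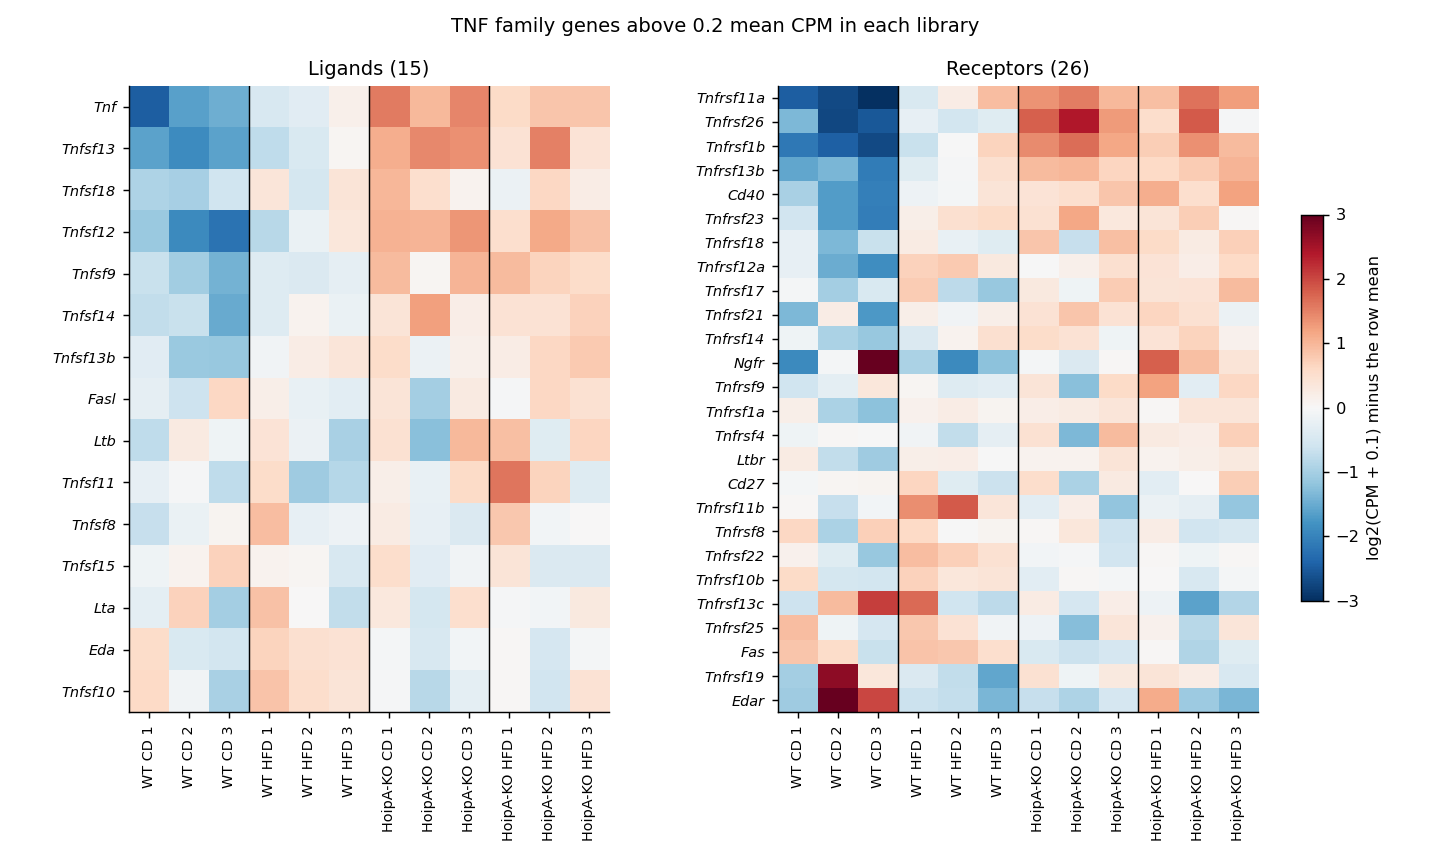
Heat map of the 41 members above 0.2 mean CPM in each of the 12 libraries, as log2(CPM + 0.1) minus the mean of the row, with colours capped at 3 in either direction; rows run from the largest to the smallest HoipA-KO against WT difference on CD. The 3 WT CD columns are the lowest for the top rows such as Tnf, Tnfsf13, Tnfrsf11a and Tnfrsf1b. Edar is highest in replicate 2 of WT on CD, and Ngfr is highest in replicate 3 of that group.

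On CD, 14 members were higher in HoipA-KO than in WT fat and 2 were lower, out of 43 that passed the filter on low counts (edgeR's quasi-likelihood test, Benjamini-Hochberg adjusted p under 0.05). Among all 18427 genes tested 37.7% were called, 18.9% higher and 18.8% lower, so the share of members called, 37.2%, was near the background, while the split leaned to higher. The median log2 fold change was 0.65 over the members and -0.06 over all genes. The libraries of the groups did not overlap for 17 members that were all higher in HoipA-KO and 1, Fas, that was all lower, where 27.2% and 26.8% of all genes were so. With 12 libraries, 15 members were higher and 1 lower of 41, against 34.7% of all genes called (15.6% higher and 19.1% lower), and the median of all genes was -0.21. All 14 members called higher stayed so, and Tnfrsf21 (DR6) joined them. In bulk tissue, fewer cells of a type and less RNA per cell cannot be told apart.

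Of the 17 ligands tested on CD, 7 were higher in HoipA-KO fat, and the other 10 also had an unadjusted p above 0.05 by edgeR. Tnf was at 0.17 and 0.39 CPM in replicates 1 and 2 of WT on CD and at 0.44 in replicate 3. In HoipA-KO on CD it was at 4.29, 2.81 and 4.05 CPM, so the groups did not overlap. The difference was 13.4-fold (log2 3.75 ± 0.46 SE, adjusted p = 0.00054 by edgeR). With each library left out in turn the log2 difference stayed between 3.27 and 4.46.

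Tnfsf13 encodes APRIL, a survival factor for plasma cells and B cells. It was at 3.61, 2.98 and 3.65 CPM in WT on CD against 24.0, 30.5 and 29.3 in HoipA-KO on CD, 8.7-fold higher (log2 3.12 ± 0.42 SE, adjusted p = 0.000745 by edgeR). Tnfsf12 lies next to it on chromosome 11 and shares the readthrough gene Tnfsfm13 with it, so how reads were divided among these 3 genes is uncertain. Tnfsf12 was 6.19-fold higher, at 123 ± 14.5 CPM (SD, n = 3) against 20.3 ± 7.7 (SD, n = 2).

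Tnfsf9, the 4-1BB ligand that costimulates T cells, was at 0.39, 0.28 and 0.19 CPM in WT on CD and at 1.40, 0.71 and 1.47 in HoipA-KO on CD. These levels are near 1 CPM, yet the groups did not overlap (3.63-fold, log2 1.86 ± 0.41 SE, adjusted p = 0.00691 by edgeR). Tnfsf14 (LIGHT) was 3.14-fold and Tnfsf13b (BAFF, the B cell survival factor) 1.93-fold higher. Tnfsf18, the GITR ligand, had 4 counts in the pair of WT CD libraries and 50 in the 3 HoipA-KO ones, a ratio of 7.08 with a 95% exact counting interval of 2.6 to 27.0. With each library left out, the log2 difference ran from 1.19 to 1.80 for Tnfsf14 and from 2.46 to 2.93 for Tnfsf18. Both calls were lost without replicate 1 or 2 of WT on CD. Those fits leave 1 library in that group and take the spread from the other groups. The Tnfsf13b call was lost on leaving out any 1 of 9 libraries (log2 0.61 to 1.379).

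The remaining ligands did not pass the test on CD. Tnfsf10 (TRAIL), which can start apoptosis, was at 12.99 ± 3.49 CPM in HoipA-KO against 20.3 ± 6.76 in WT on CD (log2 -0.61 ± 0.32 SE, adjusted p = 0.159 by edgeR). Eda, the ectodysplasin of skin appendages, had a log2 difference of -0.30 ± 0.30 SE. Fasl, Ltb, Lta, Tnfsf8, Tnfsf11 (RANKL), Tnfsf15, Tnfsf4 and Cd40lg lay between -0.17 and 1.07 in log2 difference with adjusted p of 0.449 or more. Cd70 was not tested, with 1 library of HoipA-KO on CD at 0.020 CPM and the others of both CD groups at 0.

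Of the 26 receptors, 7 were higher in HoipA-KO fat on CD and 2 lower. Tnfrsf1b was at 20.4, 16.4 and 13.6 CPM in WT on CD and at 241, 286 and 202 CPM in HoipA-KO on CD. It was 13.6-fold higher (log2 3.76 ± 0.42 SE, adjusted p = 0.000477 by edgeR), with leave-one-out values of 3.605 to 3.905. Tnfrsf1a, by contrast, was at 235, 108 and 88.6 CPM in WT and at 241, 249.4 and 268 CPM in HoipA-KO on CD. Each HoipA-KO library was above each WT one, but the difference did not pass the test (log2 0.60 ± 0.28 SE, adjusted p = 0.116 by edgeR), and its highest WT library lay just below the HoipA-KO range. Without that library, replicate 1, the log2 difference was 1.25, with 1 WT CD library left and the spread taken from the other groups. Within each library the level of Tnfrsf1b per kb was 0.0589 and 0.103 times that of Tnfrsf1a in replicates 1 and 2 of WT on CD, and 0.679, 0.777 and 0.509 times in HoipA-KO on CD.

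**Figure D2:**
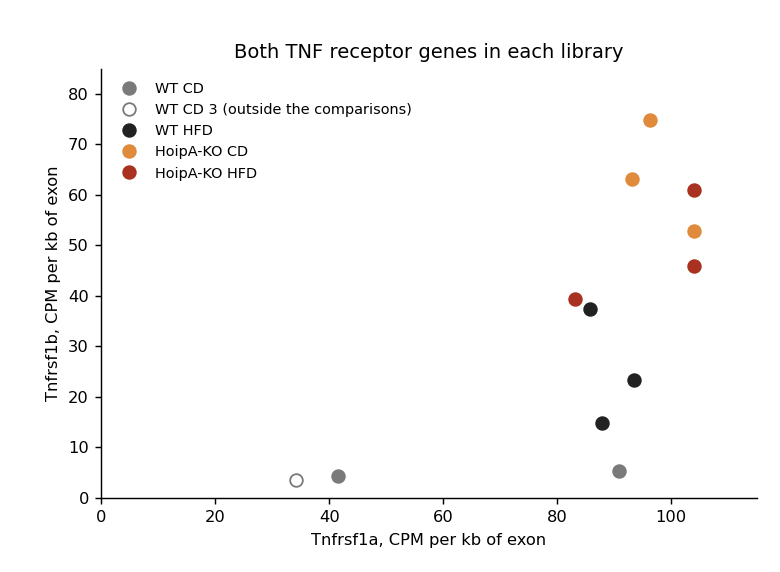
Level of Tnfrsf1b against level of Tnfrsf1a, both in CPM per kb of exon, 1 point a library, coloured by group; the open point is replicate 3 of WT on CD. The WT CD libraries lie below 6 per kb of Tnfrsf1b and the HoipA-KO CD ones between 52.9 and 74.8, while the Tnfrsf1a levels of 10 of the 12 libraries fall between 83.2 and 104.0.

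Tnfrsf11a encodes RANK, the receptor that drives osteoclast formation from myeloid cells. It was at 4.78, 4.09 and 2.97 CPM in WT on CD and at 69.8, 78.3 and 53.5 CPM in HoipA-KO on CD, 15.6-fold higher (log2 3.96 ± 0.44 SE, adjusted p = 0.000467 by edgeR). Its ligand Tnfsf11 was at 0.37 ± 0.13 CPM in HoipA-KO on CD and did not pass the test. Tnfrsf13b (TACI), a receptor for APRIL and BAFF, was at 2.56, 2.93 and 1.75 CPM in WT against 15.0, 15.6 and 12.2 in HoipA-KO on CD, 5.32-fold higher (log2 2.41 ± 0.29 SE, adjusted p = 0.000519 by edgeR). The other receptors of these ligands, Tnfrsf13c (BAFF receptor) and Tnfrsf17 (BCMA), did not pass the test, with log2 differences of -0.38 ± 0.93 SE and 0.99 ± 0.69 SE.

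The neighbouring receptor genes Tnfrsf22, Tnfrsf23 and Tnfrsf26 lie side by side on chromosome 7 and are close relatives, so the counting of reads among them is uncertain. Tnfrsf26 was at 1.34, 0.45 and 0.52 CPM in WT on CD and at 12.5, 19.1 and 8.82 in HoipA-KO on CD, 15.5-fold higher (log2 3.96 ± 0.72 SE, adjusted p = 0.00282 by edgeR). Tnfrsf23 was at 5.84, 2.64 and 2.01 CPM in WT and at 11.98, 19.4 and 10.8 CPM in HoipA-KO on CD, 3.43-fold higher; on HFD the HoipA-KO libraries were at 11.4, 14.6 and 8.94 CPM. Tnfrsf22 was at 5.58 ± 1.1 CPM in HoipA-KO and 6.06 ± 1.46 in WT on CD (log2 -0.08 ± 0.25 SE) and did not pass the test. Cd40, which activates myeloid and B cells, was 3.96-fold higher, and Tnfrsf12a (FN14, the receptor of TWEAK) 2.01-fold higher, the latter call being lost without any 1 of 6 libraries, replicate 2 of WT on CD among them (log2 0.52 to 1.75).

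Fas, a death receptor, was called lower. It was at 33.7 and 27.7 CPM in replicates 1 and 2 of WT on CD and at 13.8, 12.1 and 13.3 CPM in HoipA-KO on CD, 2.3-fold lower (log2 -1.20 ± 0.23 SE, adjusted p = 0.00361 by edgeR). Replicate 3 of WT on CD, at 11.99 CPM, lay just below these HoipA-KO libraries, and with 12 libraries the call was lost (log2 -0.93, adjusted p = 0.0566 by edgeR, and 1.58e-05 to 0.182 over the alternatives). Edar, the receptor of ectodysplasin, was also called lower, but its WT CD libraries were at 0.024, 9.89 and 0.94 CPM, and the HoipA-KO CD ones at 0.060, 0.036 and 0.082. On HFD they were at 0.066, 0.058 and 0 in WT and at 0.46, 0.022 and 0 in HoipA-KO. The call rested on replicate 2, the library with 15660 CPM of epididymal genes: without it the log2 difference went from -6.32 ± 2.01 SE to 1.22 and was not called. The call was also lost without any 1 HoipA-KO CD library.

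The other 17 receptors did not pass the test on CD. Tnfrsf21 (log2 0.99 ± 0.41 SE, adjusted p = 0.0851 by edgeR) was called with 12 libraries (1.25, adjusted p = 0.0474). Ltbr had a log2 difference of 0.41 ± 0.24 SE, Tnfrsf14 (HVEM) of 0.88 ± 0.41 SE and Tnfrsf18 (GITR) of 1.39 ± 0.59 SE. Tnfrsf10b (the TRAIL receptor), Tnfrsf11b (osteoprotegerin, the soluble decoy of RANKL), Tnfrsf8 (CD30) and Cd27 lay between -0.19 and 0.10. Tnfrsf4 (OX40), Tnfrsf9 (4-1BB), Tnfrsf19 and Tnfrsf25 (DR3) lay between -1.62 and 0.65. Without replicate 1 of WT on CD the log2 difference was 0.95 for Ltbr, 2.20 for Tnfrsf18 and -2.53 for Tnfrsf19. Without replicate 2 of WT on CD it was 1.99 for Tnfrsf21 and 2.30 for Ngfr. These fits leave 1 WT CD library and take the spread from the other groups. With replicates 1 and 2 of WT on CD kept, a call appeared for Tnfrsf18 (1.77) without replicate 2 of HoipA-KO on CD. Tnfrsf19 was at 0.41, 6.53 and 1.20 CPM in WT on CD, highest in replicate 2, the library with the epididymal genes, and at 1.32, 0.85 and 1.17 CPM in HoipA-KO on CD. Its direction turned without that replicate, to a log2 difference of 1.46, which was not called. Ngfr, the neurotrophin receptor p75, was at 0.17, 0.88 and 11.1 CPM in WT on CD and at 0.88, 0.66 and 0.94 in HoipA-KO on CD, and its direction depended on the libraries used: log2 0.67 ± 0.69 SE with replicates 1 and 2, and -2.37 with all 3.

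**Figure D3:**
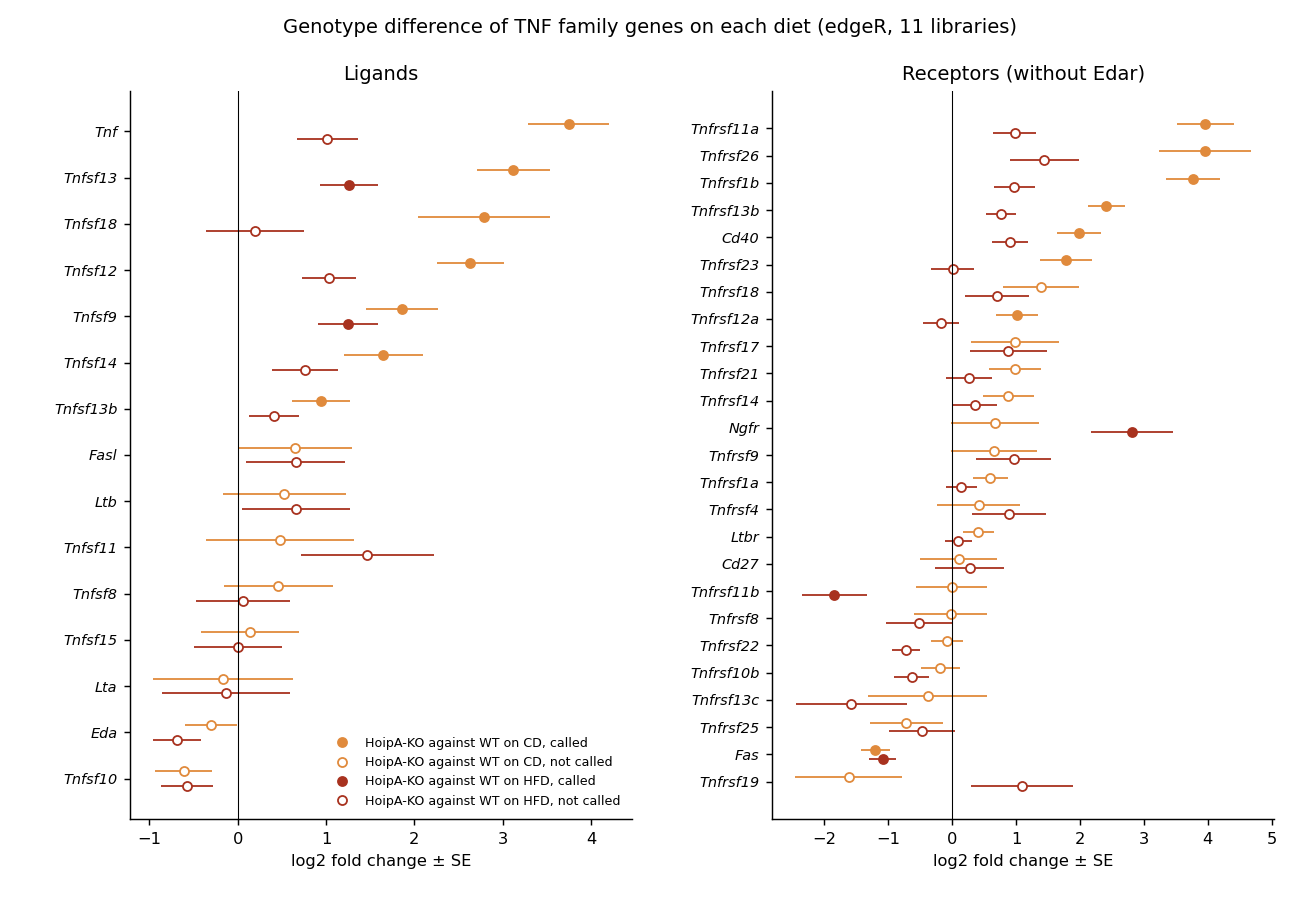
Log2 fold change of HoipA-KO against WT on CD (orange) and on HFD (red), with its SE, for the members above 0.2 mean CPM except Edar, whose CD value rests on 1 library; filled points passed the test. On CD, Tnf, Tnfrsf11a, Tnfrsf26 and Tnfrsf1b reach 3.75 to 3.96, on HFD they lie between 0.97 and 1.44, and Fas is below 0 on both diets.

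Macrophage markers moved with these differences. Of 10 macrophage genes, 9 were higher in HoipA-KO fat on CD, with a median log2 difference of 3.51. Their summed level was 491, 341 and 299 CPM in WT on CD, 1155, 2153 and 3408 in WT on HFD, 4582, 5355 and 4825 in HoipA-KO on CD and 3917, 5786 and 5249 in HoipA-KO on HFD, with Cd68 the most abundant and no marker at 0. Mast cell genes also moved, 5 of 6 being higher on CD (median 6.89), with sums of 20.0 to 30.4 CPM in WT on CD and 551 to 663 in HoipA-KO on CD. Adipocyte genes went the other way, 9 of 10 being lower on CD (median -1.92), and 8 with 12 libraries. The adipocyte sum, led by Fabp4, was 43380, 17980 and 11650 CPM in WT on CD and 8753, 6357 and 9535 in HoipA-KO on CD. Of 8 genes of lipid-associated macrophages 7 were higher (median 6.31), of 8 adipose progenitor genes 4 were higher (0.94), and of 7 endothelial genes 3 were lower (-0.67), 1 with 12 libraries. The B cell sum was 5.36, 24.6 and 24.5 CPM in WT on CD and 12.1, 4.8 and 13.9 in HoipA-KO on CD. The T cell sum was 6.97, 9.17 and 12.02 CPM and 24.1, 7.27 and 23.1 CPM.

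Levels were also expressed per 1000 CPM of the macrophage list in the same library, a description added after the values were seen and carrying no test. On this scale Tnfrsf1b ran from 33.4 to 53.3 over the 11 libraries, a 1.6-fold range, where its CPM spanned 17.4-fold. Its mean was 44.9 in WT on CD, 44.2 in WT on HFD, 49.3 in HoipA-KO on CD and 37.3 in HoipA-KO on HFD. Tnfrsf11a spanned 1.77-fold on it against 20.7-fold in CPM. Tnf spanned 3.26-fold on it against 25.1-fold in CPM, with replicate 1 of WT on CD lowest at 0.347 and replicate 2 highest at 1.13. Tnfrsf13b spanned 3.8-fold with its highest value in WT on CD. Tnfsf9 spanned 6.15-fold against 5.29-fold in CPM and Tnfrsf23 7.0-fold against 7.36-fold, so their ranges were about as wide on either scale. The order of their group means changed, however, WT on CD being lowest in CPM and highest on this scale. Means of Tnfsf9 were 0.806 in WT on CD, 0.271 in WT on HFD, 0.248 in HoipA-KO on CD and 0.252 in HoipA-KO on HFD. Those of Tnfrsf23 were 9.83, 6.02, 2.83 and 2.38 in the same order. Fas spanned 46.5-fold against 3.41-fold in CPM. The part of cell numbers in the differences was not tested.

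**Figure D4:**
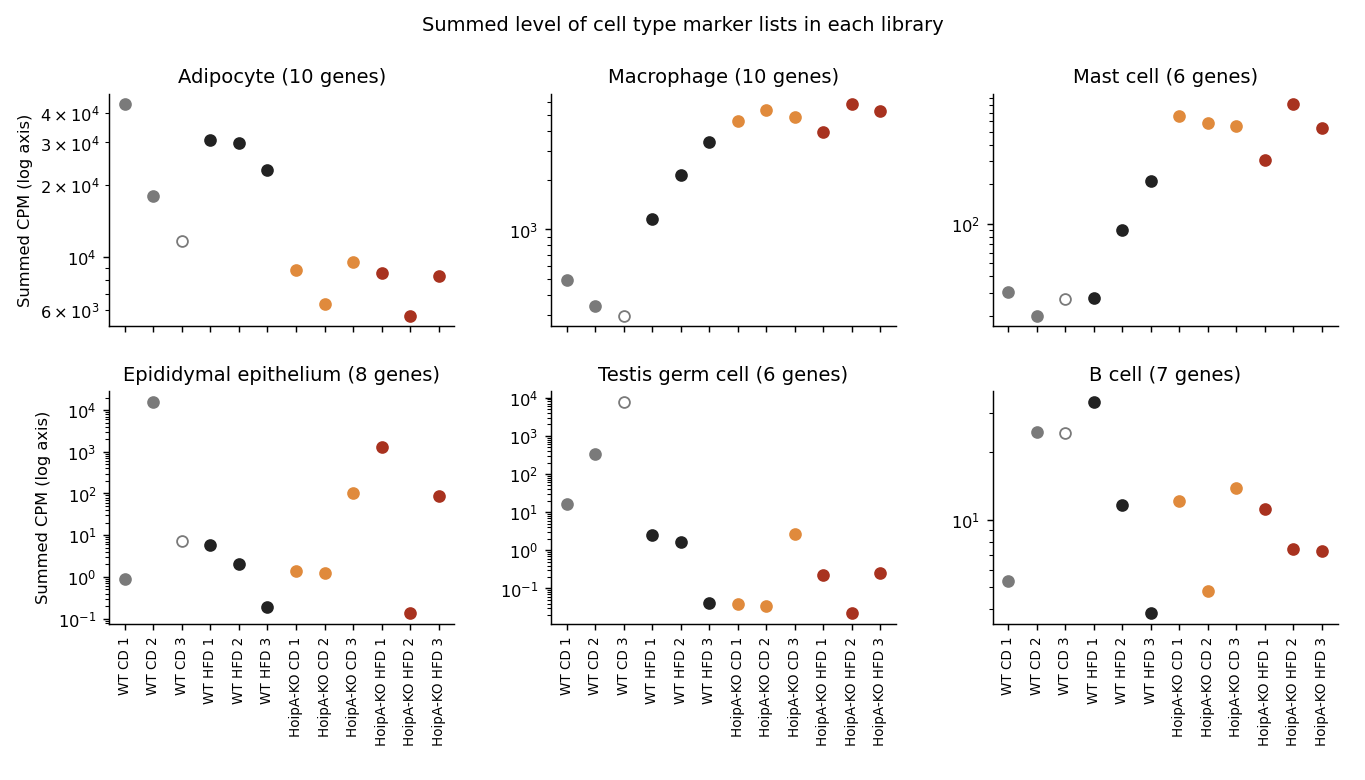
Summed CPM of 6 cell type marker lists in each library, on log axes, coloured by group as in the other plots; the open point is replicate 3 of WT on CD. Macrophage sums are lowest in WT on CD, mast cell sums are 20.0 to 30.4 there and 27.5 in the lowest WT HFD library, adipocyte sums are lowest in the HoipA-KO groups, and replicates 2 and 3 of WT on CD hold the highest epididymal (15660) and testis (7731) sums.

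On HFD, 3 members were higher in HoipA-KO than in WT fat and 2 were lower, 11.6% of 43 against 11.8% of all genes (4.2% higher and 7.62% lower). The median log2 difference was 0.41 over the members and 0.06 over all genes. With 12 libraries 0 members passed edgeR's quasi-likelihood test at an adjusted p under 0.05, where 2.78% of all genes did (0.531% higher and 2.25% lower). There, 13 members (31.7%) had an unadjusted p under 0.05, as did 21.7% of all genes. DESeq2's Wald test on the 11 libraries called 10 members higher and 3 lower, where it called 11.8% of all genes higher and 12.1% lower.

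Ngfr had the largest difference on HFD. It was at 0.43, 0.17 and 0.33 CPM in WT and at 3.47, 1.82 and 1.24 CPM in HoipA-KO on HFD, 7.04-fold higher with no overlap (log2 2.81 ± 0.64 SE, adjusted p = 0.0267 by edgeR). Its highest value was in replicate 1 of HoipA-KO, the library with the epididymal gene Crisp1. The log2 difference stayed between 2.33 and 3.10 with each library left out. Of 6 Schwann cell genes, cells in which p75 is a known marker, 1 was higher on HFD and 0 with 12 libraries, with sums of 43.6 to 54.9 CPM in WT and 52.5 to 73.6 in HoipA-KO. The part of such cells in the difference was not tested.

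Tnfsf13 was at 6.58, 8.13 and 11.8 CPM in WT and at 15.2, 32.3 and 15.0 CPM in HoipA-KO on HFD, 2.4-fold higher (log2 1.26 ± 0.33 SE, adjusted p = 0.0395 by edgeR). Tnfsf9 was at 0.50, 0.48 and 0.54 CPM in WT against 1.41, 1.13 and 1.05 in HoipA-KO on HFD, 2.38-fold higher (log2 1.25 ± 0.34 SE, adjusted p = 0.0454 by edgeR). Fas was at 34.4, 33.4 and 27.0 CPM in WT and at 19.4, 10.1 and 14.7 CPM in HoipA-KO on HFD, 2.12-fold lower (log2 -1.09 ± 0.21 SE, adjusted p = 0.0165 by edgeR). Tnfsf13, Tnfsf9 and Fas were thus the 3 members called in the same direction on both diets. The fifth call was Tnfrsf11b, whose CD libraries were at 2.31, 1.37 and 2.13 CPM in WT and 1.78, 2.60 and 0.94 in HoipA-KO. It was at 6.14, 8.40 and 2.93 CPM in WT and at 1.99, 1.86 and 0.96 CPM in HoipA-KO on HFD, 3.59-fold lower (log2 -1.84 ± 0.51 SE, adjusted p = 0.0466 by edgeR). In these 4 genes too the groups did not overlap on HFD, as in 12 members all higher and 5 all lower in HoipA-KO, where 20.6% and 23.7% of all genes were so.

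Calls also came with fewer libraries. Without replicate 3 of WT on HFD, Tnfrsf11a (log2 1.41), Tnfrsf1b (1.383), Tnfsf12 (1.37), Cd40 (1.10) and Tnfrsf13b (1.03) were called higher and Tnfrsf22 (-0.83) lower, with 14.2% of all genes called. Without replicate 1 or 2 of WT on CD, with 17.6% and 19.9% of all genes called, Tnf (0.998 and 1.017), Tnfsf12 and Cd40 were called higher in HoipA-KO, and Tnfrsf22 (-0.73 and -0.72), Tnfrsf10b (-0.64 and -0.63) and Eda (-0.70 and -0.69) were called lower. Tnfrsf13b was also called higher without replicate 2 of WT on CD. Each of the 5 calls on HFD was lost without replicate 1 or replicate 2 of WT on HFD, and each without replicate 3 of HoipA-KO on HFD, where 1.53%, 1.8% and 3.0% of all genes were called. Some were also lost without other libraries, Tnfsf9 without 8 of the 11. The leave-one-out log2 differences ran from 0.78 to 1.54 for Tnfsf13, 1.13 to 1.33 for Tnfsf9, -1.32 to -0.88 for Fas and -2.15 to -1.49 for Tnfrsf11b. Tnf was at 0.96, 1.08 and 1.57 CPM in WT and at 2.13, 2.55 and 2.54 CPM in HoipA-KO on HFD. These did not overlap, but the difference of 2.02-fold did not pass the test (log2 1.02 ± 0.34 SE, adjusted p = 0.08 by edgeR). Tnfrsf1b, at 56.6, 89.5 and 143 CPM in WT and 150, 233 and 175 in HoipA-KO on HFD, had an adjusted p of 0.0758 by edgeR (log2 0.97 ± 0.32 SE). Tnfrsf1a was at 228, 242 and 222 CPM in WT and at 216, 270 and 268 CPM in HoipA-KO on HFD, with overlap (log2 0.14 ± 0.24 SE). Here 4 of 10 macrophage genes were higher (median 1.04) and all 10 adipocyte genes lower (median -2.04). With 12 libraries 0 of the macrophage genes (median 1.01) and 7 of the adipocyte genes (median -2.05) were called.

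In WT fat, 9 members were higher on HFD than on CD and 0 lower, 20.9% of 43 against 14.8% of all genes by edgeR's test, 9.35% higher and 5.47% lower. At an unadjusted p under 0.05 there were 16 members (37.2%), against 32.1% of all genes. DESeq2's Wald test called 13 higher and 2 lower, and 12.7% and 12.2% of all genes. With 12 libraries, 10 were higher, Tnfrsf22 joining the 9, and 0 lower, against 9.05% and 5.97% of all genes. The groups did not overlap for 16 members, all higher on HFD, where 24.1% of all genes were so. Tnfrsf11a was 7.79-fold higher, at 19.8, 31.6 and 51.7 CPM (log2 2.96 ± 0.42 SE, adjusted p = 0.00617 by edgeR). Tnfrsf1b was 5.25-fold, Tnf 4.29-fold, Tnfrsf13b 2.97-fold and Tnfrsf23 2.79-fold higher on HFD. Tnfrsf13b was at 6.04, 7.53 and 10.8 CPM and Tnfrsf23 at 9.84, 12.3 and 13.1 CPM in WT on HFD. Tnfsf13 and Cd40 were each 2.69-fold, Tnfrsf12a 2.58-fold and Tnfsf12 2.49-fold higher. This comparison shares its WT CD libraries with the genotype comparison on CD.

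Of these 9 calls, those of Tnfrsf11a, Tnfrsf1b and Tnfrsf13b were kept with each library left out in turn, and that of Tnf was lost without replicate 3 of WT on HFD (log2 1.65 to 2.82). The calls of Cd40, Tnfrsf12a, Tnfrsf23, Tnfsf13 and Tnfsf12 were lost without replicate 2 of WT on CD or replicate 2 of WT on HFD, with leave-one-out log2 differences from 0.87 to 2.17. Those of Cd40, Tnfrsf23, Tnfsf13 and Tnfsf12 were lost without replicate 3 of WT on HFD, those of Tnfrsf12a and Tnfrsf23 without replicate 1, and Tnfrsf23, Tnfsf13 and Tnfsf12 also when some HoipA-KO libraries were left out. With the replicate number as a block, the calls of Tnfrsf12a, Tnfrsf23, Tnfsf13 and Tnfsf12 were lost and Tnfrsf11b was called higher (log2 1.93, adjusted p = 0.0241 by edgeR), with 8.15% of all genes called. In an edgeR fit of these 2 groups alone, 0 of all 17200 genes tested were called, the members among them. Fas was 31.6 ± 4.04 CPM on HFD and 30.7 ± 4.24 on CD in WT (log2 0.05 ± 0.23 SE). Tnfrsf26, at 2.96, 2.38 and 2.74 CPM in WT on HFD, had a log2 difference of 1.60 ± 0.65 SE and did not pass the test. The macrophage list moved here as well, 9 of 10 genes being higher (median 2.44), while the adipocyte list had a median of -0.32.

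In HoipA-KO fat, 0 members differed between HFD and CD by edgeR's test with either 11 or 12 libraries, and 0 of all genes did (0%). At an unadjusted p under 0.05 there were 415 genes, 1 of them a member, Ngfr, with 11 libraries and 0 members with 12. DESeq2's Wald test called 0 members and 9 of 22671 genes (0.0397%). Tnf was at 2.41 ± 0.24 CPM on HFD and 3.72 ± 0.79 on CD (SD, n = 3 each), with all HFD libraries below all CD ones (log2 -0.63 ± 0.34 SE). Ngfr was at 2.18 ± 1.16 CPM on HFD and 0.83 ± 0.15 on CD, with all HFD libraries above (log2 1.379 ± 0.60 SE). These were the only members whose groups did not overlap in this comparison, where 2.5% of all genes were all lower and 3.4% all higher. Tnfrsf1b was at 186 ± 42.4 CPM on HFD and 243 ± 41.9 on CD, and Tnfrsf11a at 66.7 ± 16.8 and 67.2 ± 12.6. Tnfrsf26 was at 5.20, 12.96 and 3.47 CPM on HFD (log2 -0.92 ± 0.53 SE against CD).

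The genotype by diet interaction, the HoipA-KO against WT difference on HFD minus that on CD, was called below 0 for 4 members and above 0 for none, 9.3% of 43 against 3.91% of all genes (3.58% lower). At an unadjusted p under 0.05 there were 15 members (34.9%), against 22.9% of all genes. The 4 were Tnfrsf11a (log2 -2.99 ± 0.52 SE), Tnfrsf1b (-2.79 ± 0.50 SE), Tnf (-2.73 ± 0.54 SE) and Tnfrsf13b (-1.65 ± 0.36 SE), with adjusted p of 0.0256, 0.0256, 0.0301 and 0.0388 by edgeR's quasi-likelihood test. All were called with 12 libraries too, where 2.7% of all genes were lower and 0.0775% higher. In each, the mean of WT fat on CD was lowest, that of WT fat on HFD stood between, and those of the HoipA-KO groups were highest. For Tnfrsf11a the libraries overlapped on HFD, with the highest WT one at 51.7 CPM and the lowest HoipA-KO one at 51.0. Tnfrsf11a was at 51.0, 84.5 and 64.5 CPM and Tnfrsf13b at 11.8, 13.2 and 15.8 CPM in HoipA-KO on HFD, close to their CD values.

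Each of these interaction calls was lost without replicate 2 of WT on CD, replicate 2 of WT on HFD, any 1 HoipA-KO CD library, or replicate 1 or 3 of HoipA-KO on HFD. In these settings 1 to 4 of all genes were called, against 721 with the 11 libraries, so the loss was not limited to these members. The calls of Tnf (-2.37) and Tnfrsf13b (-1.27) were also lost without replicate 3 of WT on HFD, with 226 genes still called, and that of Tnfrsf13b (-1.64) without replicate 2 of HoipA-KO on HFD, with 643 still called. With the replicate number as a block, 2.05% of all genes were called, and Tnfrsf11a kept its call (log2 -2.88, adjusted p = 0.0479 by edgeR). Tnfrsf1b (-2.68, 0.0504), Tnf (-2.66, 0.0623) and Tnfrsf13b (-1.57, 0.0686) lost theirs, with log2 value and edgeR's adjusted p in parentheses. Leave-one-out values were -3.26 to -2.45 for Tnfrsf11a, -3.06 to -2.28 for Tnfrsf1b, -3.45 to -2.28 for Tnf and -1.82 to -1.27 for Tnfrsf13b, and edgeR's adjusted p reached 0.125 over all alternatives. Of 10 macrophage genes 5 were called below 0 for the interaction (median of the list -2.23).

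**Figure D5:**
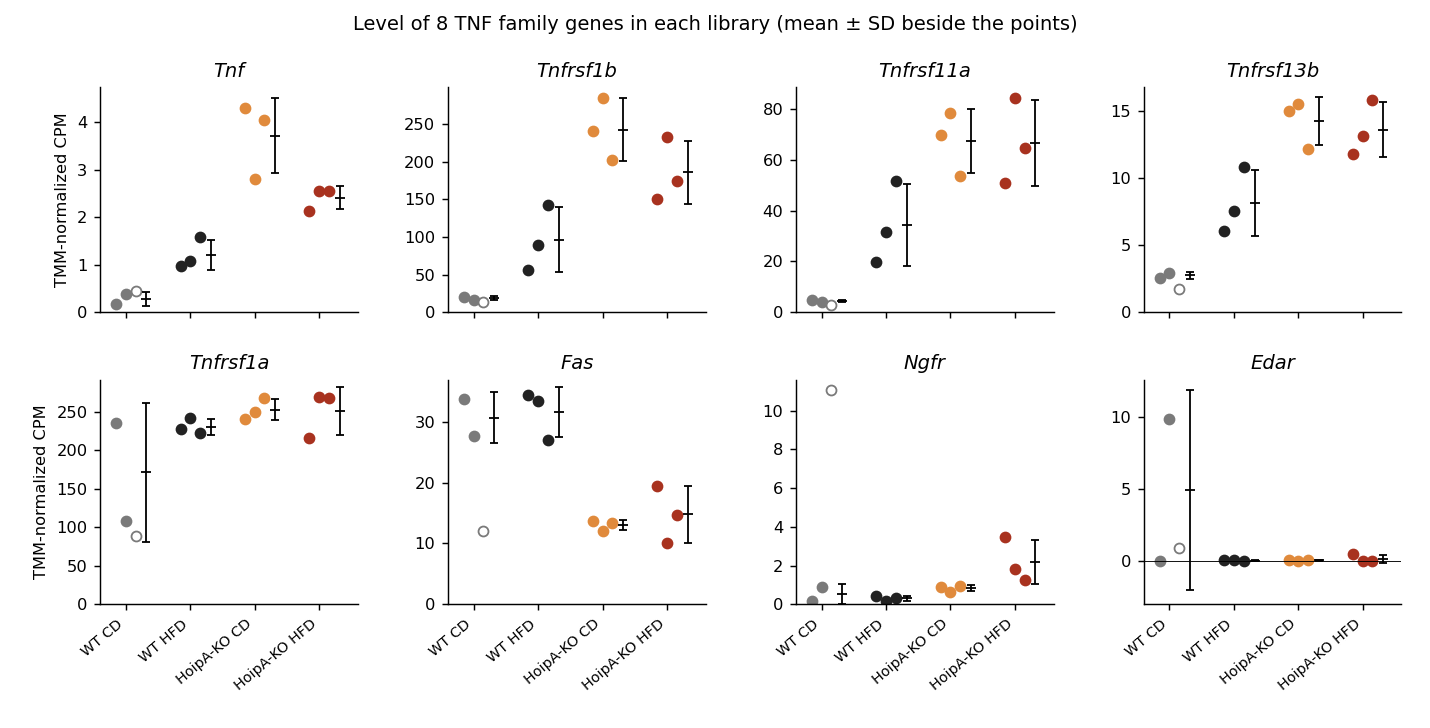
TMM-normalized CPM of 8 members in each library by group, with mean ± SD beside the points; the open WT CD point is replicate 3, which is left out of the mean. Means of Tnf, Tnfrsf1b, Tnfrsf11a and Tnfrsf13b are lowest in WT on CD and highest in the HoipA-KO groups. Fas is lower in both HoipA-KO groups than in the means of both WT groups. Ngfr and Edar have 1 WT CD library far above the rest, at 11.1 and 9.89 CPM.

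Over the 12 libraries, the members whose log2 CPM was most like that of Tnf were Tnfsf13 (Pearson r = 0.944), Tnfrsf1b (0.942), Tnfrsf13b (0.932), Tnfrsf11a (0.923) and Tnfsf12 (0.916), a description over libraries that share their group means. Fas was the least alike, at r = -0.596. RefSeq promoter sequences (GRCm38.p6) were available for 34 of the 44 members. The 250 bases before the start of the 4 genes with an interaction are shown because these genes moved together. Capitals mark matches, on either strand, to a loose form of the NF-kB site, GGG and CC with any 5 bases between them; overlapping matches run together. Matches to the AP-1 letters TGANTCA were searched as well and did not occur in these 4 windows.

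Tnf (chr17:35202008-35202257, minus strand): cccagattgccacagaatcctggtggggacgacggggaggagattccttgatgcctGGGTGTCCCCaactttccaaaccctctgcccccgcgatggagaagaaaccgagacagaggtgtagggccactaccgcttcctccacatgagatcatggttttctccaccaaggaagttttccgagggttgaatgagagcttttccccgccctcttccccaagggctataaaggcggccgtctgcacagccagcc
Tnfrsf1b (chr4:145246871-145247120, minus strand): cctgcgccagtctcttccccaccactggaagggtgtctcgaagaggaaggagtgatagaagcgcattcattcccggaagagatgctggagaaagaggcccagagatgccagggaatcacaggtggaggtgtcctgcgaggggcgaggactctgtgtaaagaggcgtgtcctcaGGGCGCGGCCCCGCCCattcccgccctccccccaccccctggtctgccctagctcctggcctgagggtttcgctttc
Tnfrsf11a (chr1:105780473-105780722, plus strand): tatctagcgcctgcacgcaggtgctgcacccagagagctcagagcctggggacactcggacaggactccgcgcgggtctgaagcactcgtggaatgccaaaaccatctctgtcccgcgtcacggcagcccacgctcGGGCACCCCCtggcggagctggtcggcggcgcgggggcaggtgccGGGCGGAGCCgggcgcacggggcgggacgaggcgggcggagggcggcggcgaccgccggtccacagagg
Tnfrsf13b (chr11:61126505-61126754, plus strand): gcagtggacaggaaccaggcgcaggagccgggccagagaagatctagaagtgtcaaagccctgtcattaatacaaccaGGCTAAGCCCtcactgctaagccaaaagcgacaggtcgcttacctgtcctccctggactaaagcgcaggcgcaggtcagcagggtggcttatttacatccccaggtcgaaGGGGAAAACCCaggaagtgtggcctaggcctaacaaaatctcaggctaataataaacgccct

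The Tnf window held 1 match, which began 194 bases before the start. Those of Tnfrsf1b and Tnfrsf13b held 3 each, some overlapping, and that of Tnfrsf11a held 2. Of all 32851 mouse promoters of this length in the table, 45.8% held the NF-kB letters and 6.75% held TGANTCA. Of 38 promoters of the members, 25 held the first and 6 the second, 65.8% and 15.8%. The letters are common, and a match describes the sequence and not a bound site.

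Several family genes lie side by side, and their results on CD are given together. On GRCm38 (GENCODE annotation), Ltb, Tnf and Lta occupy chr17:35194439-35205351, with Tnf on the minus strand at chr17:35199381-35202007. Tnf was called higher on CD, but Ltb (log2 0.53 ± 0.69 SE) and Lta (-0.17 ± 0.79 SE) did not pass the test. On chromosome 4, Tnfrsf1b (145213463 to 145246870) is followed by Tnfrsf8 (145267137 to 145315164), which had a log2 difference of -0.03 ± 0.57 SE on CD. On chromosome 6, Tnfrsf1a, Ltbr and Cd27 lie between positions 125232622 and 125362484. None of the 3 was called in any comparison in the reported fit or with all 12 libraries. With WT CD replicates 2 and 3, chosen after seeing the data, Tnfrsf1a and Ltbr were called on CD. In that setting both were also called in the WT diet comparison and for the interaction. With library totals in place of TMM, Tnfrsf1a was called higher on CD (log2 0.66, adjusted p = 0.0468 by edgeR). Whether neighbours differed from each other was not tested.

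Lists of genes that cut the ligands or carry the receptors' signal were tested in the same fit, in which 18.9% of all genes were higher and 18.8% lower on CD. Of 6 ligand shedding genes 3 were higher in HoipA-KO fat and 0 lower, with a median log2 difference of 0.93. They were Adam17, the TNF converting enzyme (log2 1.86 ± 0.34 SE, adjusted p = 0.00299 by edgeR), its relative Adam10 (1.02 ± 0.34 SE) and Frmd8, a partner of the iRhom proteins (1.70 ± 0.24 SE). Timp3, the inhibitor of ADAM17, was at log2 -1.01 ± 0.45 SE and did not pass the test (adjusted p = 0.103 by edgeR), nor did Rhbdf1 and Rhbdf2, which encode the iRhoms. With 12 libraries Rhbdf2 was called higher (0.93, adjusted p = 0.0457 by edgeR). Of 12 adaptors, 6 were higher and 1 lower, with a median of 0.41. Traf5 (1.42 ± 0.20 SE), Traf1 (1.17 ± 0.27 SE), Ripk1, Tradd, Traf3 and Traf2 were higher, Traf2 not with 12 libraries (0.39, adjusted p = 0.0898 by edgeR), and Birc2, which encodes cIAP1, was lower (-0.72 ± 0.19 SE, adjusted p = 0.0162 by edgeR). Traf4, Traf6, Fadd, Edaradd and Birc3 did not pass the test.

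Of 4 genes of the alternative NF-kB branch, which CD40, the lymphotoxin beta receptor and BAFF receptor feed, 3 were higher on CD. These were Map3k14, the kinase NIK (log2 1.46 ± 0.17 SE, adjusted p = 0.000519 by edgeR), Nfkb2 (1.20 ± 0.20 SE) and Relb (0.61 ± 0.20 SE), while Chuk was at -0.29 ± 0.20 SE. Of 4 further family members outside the naming rule, Relt was higher on CD (1.45 ± 0.34 SE). On HFD, Tradd alone of these 26 genes was called between genotypes (0.63 ± 0.15 SE, adjusted p = 0.0336 by edgeR). Of all genes, 4.2% were higher and 7.62% lower in that comparison. With 12 libraries Tradd was not called. In WT fat, where HOIP is intact, 7 of the 26 genes were higher on HFD than on CD and 0 lower, against 9.35% and 5.47% of all genes. These were Map3k14 (1.05 ± 0.17 SE, adjusted p = 0.00695 by edgeR), Nfkb2 (1.09 ± 0.20 SE), Traf1, Traf3 and Traf5 (0.67 to 0.92), and Adam17 and Frmd8 of the shedding list (1.33 and 1.13). With 12 libraries Traf1 and Frmd8 were not called, and of the family members outside the naming rule Eda2r (0.94) was called higher and Rell2 (-2.44) lower. In the interaction Map3k14 was called below 0 (-1.01 ± 0.22 SE, adjusted p = 0.0426 by edgeR) and was not with 12 libraries (adjusted p = 0.0607).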

How the data were processed

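Whole GWAT from WT and HoipA-KO mice on CD or HFD was sequenced as stranded polyA libraries with ERCC spike-ins. Per the submitters' processing notes, reads were trimmed with Trim Galore 0.6.7, aligned with STAR 2.7.10a and quantified with Salmon 1.5.2, with MultiQC 1.11 for quality control and GRCm38 as the genome build; the study's methods name a human assembly, and the strand setting of the counting is not given in the sources used here. The authors deposited estimated counts per gene, which were rounded to whole numbers here. The deposited tables of the authors' own comparisons (DESeq2 1.38.1 fold changes and p-values) were not used.

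Genes passing edgeR's filterByExpr (18427 with 11 libraries) were scaled by TMM and tested with edgeR 4.0.16 quasi-likelihood fits of the 4 groups (R 4.3.3), with Benjamini-Hochberg adjustment over all genes and a threshold of 0.05. Replicate 3 of WT on CD was left out, as in the authors' tables, and all 12 libraries were fitted beside it. Levels are TMM-normalized CPM, with 0.2 mean CPM judged on protein-coding totals, and group means of WT on CD have n = 2. Depth was 30513500 to 60540260 counts a library, and 3 counts were taken as the floor; intervals cover counting error only. The scripts were tested on simulated data. Alternatives were DESeq2 1.42.0, other scalings, filters and thresholds, a replicate block, the compared groups alone and each library left out.

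The members and gene lists were chosen with earlier results of these data known. Values in every library are given for Tnf, Tnfrsf1a, Tnfrsf1b, the 6 called members with the largest change in each genotype comparison and in the WT diet comparison, and members called for the interaction. Gene positions are from GENCODE and promoters from RefSeq, which held 34 of the 44 members.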

Additional observations from a re-analysis of the deposited data

Results flagged for a closer look

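The genotype difference was smaller on HFD than on CD for 4 members, by the test of the difference itself (edgeR's interaction term). The difference of differences was -2.99 for Tnfrsf11a, -2.79 for Tnfrsf1b, -2.73 for Tnf and -1.65 for Tnfrsf13b on the log2 scale. With the replicate number as a block, the calls of Tnfrsf1b, Tnf and Tnfrsf13b were lost. The macrophage list moved with them, 5 of its 10 genes being called below 0 for the interaction, and the part of macrophage number in the 4 values was not tested.

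Ngfr was at 11.06 CPM in replicate 3 of WT on CD, the library outside the 11-library comparisons, 3.19 times the highest other library (3.47 CPM). The same library held 7731 CPM of testis germ cell genes, and their part in the Ngfr level was not tested.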

How the results depend on the processing

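Of 4576 results for single genes under the alternatives, 4294 kept their side of the threshold, 4012 of them with the same direction and 282 with another direction but no call in either fit. Of the rest, 159 lost a call, 121 gained one and 2 reversed. The causes of the changes were not tested. On CD, the number of members called lower was 1 with 12 libraries, with at least 10 counts in every library, with the groups compared alone and at an adjusted p under 0.01, and 0 with WT CD replicates 1 and 3 (1 to 3 with each library left out). On HFD, members called higher and lower were 0 and 0 with 12 libraries, with WT CD replicates 1 and 3 or 2 and 3, and at an adjusted p under 0.01. There were 5 higher with library totals in place of TMM or with at least 10 counts in every library, 10 higher with DESeq2's Wald test, and 1 lower with no filter (0 to 7 higher and 0 to 5 lower with each library left out). In the WT diet comparison, members called higher were 0 with the groups compared alone, 17 with WT CD replicates 2 and 3 and 3 at an adjusted p under 0.01. Members called lower were 2 with no filter or with DESeq2, 1 with at least 10 counts, with the protein-coding table alone or with WT CD replicates 1 and 3, and 3 with replicates 2 and 3 (4 to 16 higher and 0 to 2 lower with each library left out). For the interaction, 8 were lower and 1 higher with DESeq2, 12 and 2 with WT CD replicates 2 and 3, and 0 lower at an adjusted p under 0.01 (0 to 10 lower and 0 to 3 higher with each library left out). On HFD, 1279 of 18427 genes were higher with library totals and 1065 of 14339 with at least 10 counts. The reported fit had 774. For the interaction, DESeq2 called 8.26% of all genes lower and 5.3% higher, against 3.58% and 0.331% in the reported fit. The settings with WT CD replicates 1 and 3 or 2 and 3 were chosen after seeing the data. Their counts stand without the share of all genes and are not read as a result about the members.

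On CD, Ngfr reversed to -2.89 with WT CD replicates 2 and 3, and Edar was -7.32 without replicate 1 and 1.22 without replicate 2.

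Deviations of same-numbered libraries of different groups correlated at r = -0.313 to 0.507. The 3 pairs of HoipA-KO on CD and on HFD were all above 0.1 (0.144, 0.507 and 0.287), and in no other pair of groups were all 3, so the numbers were not taken to pair the samples across all groups. The block gave 0 calls between the HoipA-KO groups, as without it. With the replicate number as a block, 12 members were higher and 1 lower on CD (Tnfsf13b, Tnfrsf12a and Edar lost). Of all genes, 17.2% were higher and 14.8% lower there. On HFD 4 members were higher and 2 lower, Cd40 being gained, against 5.24% and 8.66% of all genes. In the WT diet comparison 6 were higher and 0 lower (4 calls lost and 1 gained), against 6.49% and 1.67%. For the interaction 1 member was lower, against 1.97% of all genes. Low counts limit Tnfsf4, Cd40lg, Cd70, Lta and Tnfsf18, which are near the floor of 3 counts in some libraries.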
